A study of Mus musculus with 6 samples.

Results

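The genes described here are 10 chaperones and chaperone helpers of the lumen of the endoplasmic reticulum (ER): Hspa5, Hyou1, Dnajb9, Dnajb11, Dnajc3, Sdf2l1, Hsp90b1, Calr, Canx and Manf. They were taken by name from the table of read counts, where all 10 were found among 23867 gene symbols, and all 10 were tested. RNA of mouse chondrocytes, the cells that build cartilage, was sequenced in bulk from 3 knockout libraries (columns CRE1, CRE2 and CRE3) and 3 wild-type libraries (WT1, WT2 and WT3). The knockout is labelled with the genotype MFN2Col2a1-/-, which pairs Mfn2, a mitochondrial fusion protein also found at contacts between mitochondria and ER, with the cartilage collagen gene Col2a1, and the wild type is labelled MFN2wt. The labels give no strain, age or treatment, do not name the promoter that drives the recombinase, and are silent on whether each library is a separate animal, so p-values measure the spread between these libraries only.

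The ER lumen is where secreted and membrane proteins fold, and a chondrocyte, which secretes large amounts of collagen and proteoglycan, depends on it heavily. BiP, the HSP70 of the ER encoded by Hspa5, binds unfolded chains in a cycle of ATP hydrolysis that J proteins start and nucleotide exchange factors complete. Glycoproteins are held by the lectin chaperones calreticulin and calnexin, and selected clients are passed to the HSP90 of the ER, endoplasmin. When unfolded protein accumulates, the unfolded protein response (UPR) acts through the factors ATF6 and XBP1 on many of these genes, partly through a promoter sequence called the ER stress response element (ERSE), made of CCAAT and CCACG held apart by a spacer of fixed length.

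Since the members are known for this shared element, the RefSeq promoter windows of the mouse assembly GRCm38.p6 were searched on both strands for the ERSE letters, CCAAT, then any 9 bases, then CCACG. A window was matched by symbol for 8 of the 10 members, and none was used here for Hyou1 and Manf. The ERSE letters were found in 5 of the 8 windows, against 0.119% of all 32851 windows (39 windows). The sites are printed 5′ to 3′ in the direction of the ERSE, with the CCAAT and CCACG blocks in capitals and the spacer in lower case, to show that the blocks are shared and the spacers are not.
Hspa5, chr2:34772025-34772043, gene on the plus strand, site in the direction of the gene: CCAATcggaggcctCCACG
Hsp90b1, chr10:86705638-86705656, gene on the minus strand, site in the direction of the gene: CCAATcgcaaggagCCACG
Hsp90b1, chr10:86705533-86705551, gene on the minus strand, site against the direction of the gene: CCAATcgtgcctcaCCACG
Calr, chr8:84847075-84847093, gene on the minus strand, site against the direction of the gene: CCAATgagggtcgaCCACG
Canx, chr11:50325800-50325818, gene on the minus strand, site in the direction of the gene: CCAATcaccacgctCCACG
Dnajc3, chr14:118937827-118937845, gene on the plus strand, site in the direction of the gene: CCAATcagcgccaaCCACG

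The site in Hspa5 lay 65 to 47 bases before the annotated start, and the 6 sites together lay between 212 and 47 bases before it. For Dnajc3 the last bases of the window were not found in a GENCODE transcript of the gene, so its distance is less certain. The windows also run a short way past the start. The related ERSE-II letters, ATTGG, then any 1 base, then CCACG, were found in the window of Dnajb11 alone among the members and in 0.0365% of all windows. In Dnajb11 they lay after the annotated start, not before it. The shorter letters TGACGTG, a core that XBP1 is known to bind, were found in Hspa5 alone among the members and in 2.01% of all windows. The last 5 letters of ERSE and ERSE-II are the same, and TGACGTG read on the other strand shares CACG with them. A match describes letters only, and a window without one says nothing of the factors that act there. The bases before the start are shown for Hspa5, which rose, and for Dnajb9, which was not called, with any ERSE blocks in capitals.
Hspa5, chr2:34771840-34772089, plus strand, 250 bases before the start: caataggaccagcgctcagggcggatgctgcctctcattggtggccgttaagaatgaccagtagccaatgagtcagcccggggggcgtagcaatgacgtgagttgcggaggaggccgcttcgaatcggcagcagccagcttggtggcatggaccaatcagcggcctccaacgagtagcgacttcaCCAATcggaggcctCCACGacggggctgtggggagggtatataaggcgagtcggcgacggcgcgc
Dnajb9, chr12:44210069-44210318, minus strand, 250 bases before the start: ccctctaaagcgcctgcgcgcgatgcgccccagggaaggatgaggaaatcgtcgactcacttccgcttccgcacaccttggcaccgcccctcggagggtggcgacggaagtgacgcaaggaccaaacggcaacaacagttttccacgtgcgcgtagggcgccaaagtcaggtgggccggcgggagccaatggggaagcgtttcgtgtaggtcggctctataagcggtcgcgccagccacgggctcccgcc

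The libraries held 31481779 to 37814723 counts in knockout cells and 39267487 to 40152687 in wild-type cells, and the smallest count behind any value of a member was 1072. Mfn2, the targeted gene, averaged 60.0 ± 3.78 CPM in knockout cells and 107 ± 0.937 CPM in wild-type cells (SD, n = 3 each). Levels in CPM are counts scaled to a common library size with TMM factors, and ± is the SD over n = 3 libraries unless an SE is named. Of 11 chondrocyte markers 10 were lower in knockout cells and 1, Snorc, was higher, and their summed level was 2175 to 2286 CPM in knockout cells and 6459 to 6620 CPM in wild-type cells. All 10 macrophage markers were lower, with a summed level of 285 to 298.5 CPM in knockout cells and 2833 to 2850 CPM in wild-type cells and no marker at 0 in every library. Of 8 fibroblast markers 3 rose and 4 fell, all 5 tested osteoblast markers fell, of 4 endothelial markers 2 rose and 1 fell, and of 8 dissociation response genes 5 rose and 3 fell. In bulk RNA, fewer cells of a type and less RNA per cell cannot be told apart, and the part of these shifts in the results on the chaperones was not tested.

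Most of the chaperones were higher in knockout cells. Of the 10, 8 rose, none fell and 2, Dnajb9 and Dnajc3, did not pass the test (edgeR quasi-likelihood test, Benjamini-Hochberg adjusted p under 0.05 over all 15028 genes tested). Over all tested genes 62.7% were called, 30.7% higher and 32.1% lower. The median log2 fold change of knockout over wild type was 0.43 for the 10 members and −0.02 for all tested genes. In the 8 members that rose the 3 knockout libraries all lay above the 3 wild-type libraries, which was so for 32.3% of all tested genes, while 34.8% of them had the knockout libraries all below. The rises were moderate, between 1.26-fold for Dnajb11 and 1.88-fold for Hsp90b1.

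**Figure D1:**
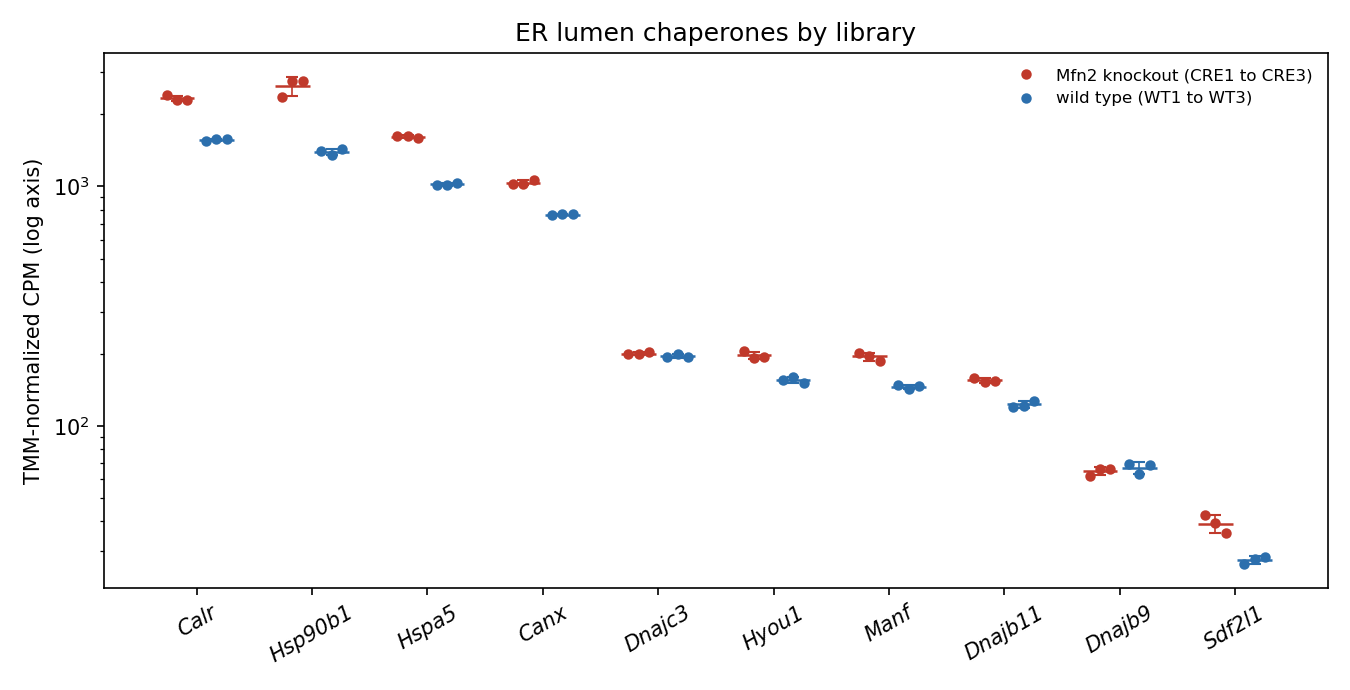
TMM-normalized CPM on a log axis for each of the 10 members, with 1 point per library, knockout on the left and wild type on the right of each pair; horizontal lines are means and bars are SDs over 3 libraries. The groups are apart in 8 genes and overlap in Dnajb9 and Dnajc3.

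Hspa5, which encodes BiP, had 1629, 1621 and 1587 CPM in the knockout libraries CRE1 to CRE3, compared with 1018, 1011 and 1035 CPM in WT1, WT2 and WT3. The knockout libraries were all higher and the libraries of each group lay close together. It rose by 0.66 on the log2 scale (SE 0.024, adjusted p = 1.15e-12, edgeR), a 1.58-fold rise, and 12.7% of tested genes had a larger log2 fold change. Hyou1 encodes a large HSP70 relative that acts as a nucleotide exchange factor for BiP. It had 204.5, 192 and 194 CPM in the knockout libraries, against 155, 159.5 and 152 CPM in the wild-type libraries, again without overlap. It rose 1.27-fold, or by 0.34 on the log2 scale (SE 0.036, adjusted p = 5.53e-07, edgeR).

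The J proteins, which deliver clients to BiP and start its ATP hydrolysis, were split. Dnajb11, a J protein that binds unfolded chains directly, had 159, 152 and 154 CPM in CRE1 to CRE3 and 120, 121 and 127 CPM in WT1 to WT3 (log2 fold change 0.33, SE 0.037, adjusted p = 9.82e-07, edgeR). Its knockout libraries stood above every wild-type library. Dnajc3, a J protein also known as an inhibitor of eIF2-alpha kinases, had 199, 199 and 203 CPM in knockout cells and 194, 200.2 and 193 CPM in wild-type cells. The groups overlapped, with a fold change of 1.02 (95% interval 0.962 to 1.09, adjusted p = 0.393, edgeR).

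Dnajb9, a J protein that returns BiP to the stress sensor IRE1 and a classical XBP1 target, had 62.0, 66.0 and 66.3 CPM in knockout cells and 69.1, 62.7 and 68.6 CPM in wild-type cells. The groups overlapped here too, and the fold change was 0.970 (95% interval 0.883 to 1.07, adjusted p = 0.453, edgeR). These intervals come from the SE and a t distribution with 4 degrees of freedom, and both leave out a rise as large as the smallest among the other 8 members. Sdf2l1, which forms a complex with Dnajb11 and keeps clients soluble during the BiP cycle, had 42.4, 39.2 and 35.6 CPM in knockout cells and 26.5, 27.7 and 28.4 CPM in wild-type cells, with no overlap (log2 fold change 0.50, SE 0.063, adjusted p = 4.19e-06, edgeR). Its knockout libraries spread more widely, with a coefficient of variation of 8.63% against 3.4% in wild-type cells.

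Hsp90b1, which encodes endoplasmin, the ER member of the HSP90 family that folds integrins and Toll-like receptors, had the highest fold change of the 10. It had 2358, 2754 and 2765 CPM in the knockout libraries CRE1 to CRE3, compared with 1401, 1349 and 1435 CPM in the wild-type libraries. CRE1 was lower than the other two knockout libraries but above each wild-type library. Hsp90b1 rose by 0.91 on the log2 scale (SE 0.047, adjusted p = 9.73e-11, edgeR), and 8.99% of tested genes had a larger one. Without CRE1 the log2 fold change was 0.99, and without each other library in turn it lay between 0.89 and 0.93.

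The lectin chaperones hold newly made glycoproteins while they fold, calreticulin free in the lumen and calnexin in the membrane. Calr had 2400, 2308 and 2307 CPM in knockout cells and 1550, 1577 and 1579 CPM in wild-type cells (log2 fold change 0.58, SE 0.024, adjusted p = 6.61e-12, edgeR). Canx had 1022, 1028 and 1065 CPM in knockout cells and 759, 765 and 765 CPM in wild-type cells (log2 fold change 0.44, SE 0.025, adjusted p = 3.81e-10, edgeR). Neither gene showed overlap between the groups, and the wild-type libraries of Canx were the tightest of all members, with a coefficient of variation of 0.415%. Manf, a small secreted protein that stays bound to BiP in the ER and is released under stress, had 201, 197 and 187 CPM in knockout cells and 148, 143 and 147 CPM in wild-type cells (log2 fold change 0.42, SE 0.036, adjusted p = 6.09e-08, edgeR). In the GENCODE annotation the genes Rbm15b, on the same strand, and Dcaf1, on the other, overlap Manf, so the split of reads between them is uncertain.

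The size of each change depended on how the libraries were scaled to each other, and for Dnajb9 and Dnajc3 the call did too. The 8 rises were called under all 19 other settings, with log2 fold changes of 0.70 to 0.99 for Hsp90b1, 0.45 to 0.68 for Hspa5, 0.13 to 0.37 for Hyou1 and 0.12 to 0.36 for Dnajb11. With total counts in place of TMM factors Dnajb9 (log2 fold change −0.25, adjusted p = 0.000369, edgeR) and Dnajc3 (−0.18, adjusted p = 0.000144, edgeR) were both called lower, 2 of 10 members, where 50.8% of all tested genes were called lower. That scaling moved the median log2 fold change of all tested genes by −0.209, and relative to the new median of −0.23 the values of Dnajb9 and Dnajc3 stayed close to that of the typical gene. With upper-quartile factors Dnajb9 was called lower (−0.14, adjusted p = 0.0239, edgeR) and Dnajc3 was not (−0.06, adjusted p = 0.126, edgeR), where 39.8% of all tested genes were called lower. On log2 FPKM both were called lower by limma, where 53.3% of tested genes were called lower with a pseudocount of 1 and a filter, 53% with a pseudocount of 0.1, and 30.7% with a pseudocount of 1 and no filter.

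**Figure D2:**
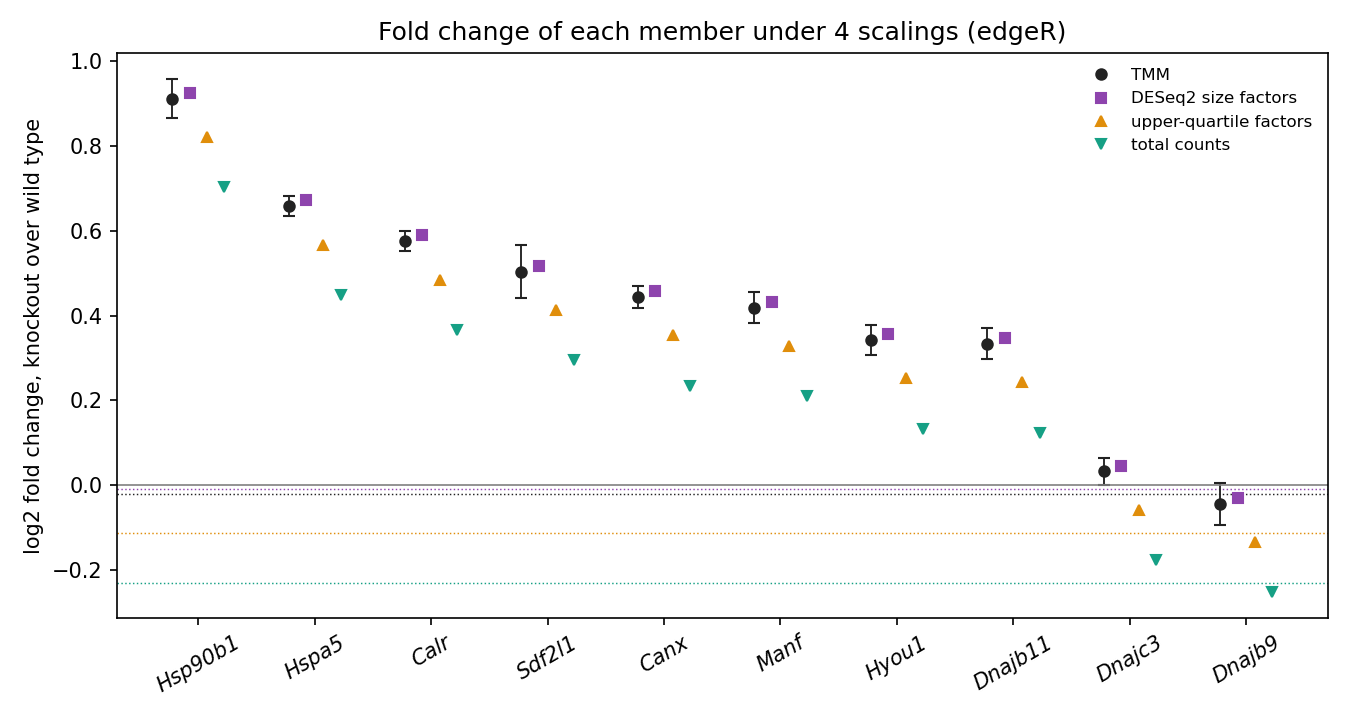
Log2 fold change of knockout over wild type for each member in edgeR under 4 ways of scaling the libraries; bars on the TMM values are SEs, and dotted lines in the same colours mark the median of all tested genes under each scaling. The order of the members is the same under each scaling, 8 members lie above 0 throughout, and Dnajb9 and Dnajc3 lie near the dotted lines.

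Compared per unit of length, the members fell into a more abundant and a less abundant set. FPKM (the authors' counts scaled by gene length and by the column total, without TMM factors) was highest for Calr, at 1119 ± 20.1 in knockout cells and 868 ± 10.3 in wild-type cells. Hsp90b1 followed with 885 ± 82.5 FPKM in knockout cells and 543 ± 17.1 FPKM in wild-type cells, and Hspa5 with 573 ± 8.28 FPKM in knockout cells and 420 ± 5.51 FPKM in wild-type cells. Calr ranked 32 to 33 among all gene symbols in the knockout libraries and 44 to 45 in the wild-type libraries. Canx had 225 ± 5.33 FPKM in knockout cells and 191 ± 1.09 FPKM in wild-type cells, and Manf had 209 ± 7.76 FPKM in knockout cells and 180 ± 3.26 FPKM in wild-type cells.

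The other 5 members reached at most 45.4 FPKM in any library. Among all 23867 gene symbols their ranks ran from 1239, for Dnajb11 in a knockout library, to 2260, for Sdf2l1 in a wild-type library. Dnajb11 had 44.5 ± 0.829 FPKM in knockout cells and 40.8 ± 1.26 FPKM in wild-type cells, and Hyou1 had 38.8 ± 1.06 FPKM in knockout cells and 35.4 ± 0.883 FPKM in wild-type cells. Dnajc3 had 36.1 ± 0.516 FPKM in knockout cells and 40.8 ± 0.807 FPKM in wild-type cells, Sdf2l1 had 32.8 ± 2.74 FPKM in knockout cells and 26.7 ± 0.952 FPKM in wild-type cells, and Dnajb9 had 32.3 ± 1.35 FPKM in knockout cells and 38.5 ± 2.05 FPKM in wild-type cells. In the order of mean FPKM, Sdf2l1 and Dnajb9 overlapped in the knockout libraries, and in the wild-type libraries Dnajb11 overlapped Dnajc3 and Dnajb9 overlapped Hyou1. The other neighbours in each order did not overlap. Dnajb9 was last of the 10 in knockout cells, while Sdf2l1 was last in wild-type cells.

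The 10 members together made up 0.797% ± 0.0185 of the summed FPKM in knockout cells and 0.659% ± 0.00275 in wild-type cells. Within the summed FPKM of the 10 members Hsp90b1 took 27.7% ± 2.11 in knockout cells and 22.8% ± 0.479 in wild-type cells, and it was the only member whose share was higher in all knockout libraries than in all wild-type libraries. Calr took 34.2% to 36.5% in knockout cells and 36.1% to 36.9% in wild-type cells, Hspa5 took 17.9% ± 0.423 in knockout cells and 17.6% ± 0.0176 in wild-type cells, and both overlapped. The share of Canx was 7.04% ± 0.14 in knockout cells and 8.02% ± 0.0905 in wild-type cells, and that of Dnajb9 was 1.01% ± 0.0247 in knockout cells and 1.61% ± 0.0765 in wild-type cells. Shares of a sum depend on each other, so a gain of Hsp90b1 lowers the rest.

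Ratios between members within a library do not depend on the scaling between libraries. They were formed from FPKM for 8 pairs, and in each pair the 3 knockout libraries lay apart from the 3 wild-type libraries (exact permutation test, two-sided, p = 0.1 for each and after Benjamini-Hochberg adjustment over the 8 pairs, which is the smallest p that 3 against 3 allows and does not reach the threshold of 0.05). For single tested genes, the knockout libraries lay all above the wild-type libraries in 32.3% and all below in 34.8%. Most of the pairs share Hspa5, so their ratios depend on each other and on its own change. The J proteins and the exchange factor were lower relative to BiP. Dnajb9 to Hspa5 was 0.0534, 0.0571 and 0.0586 in CRE1 to CRE3 and 0.0952, 0.0869 and 0.0929 in WT1 to WT3, so the knockout ratio was 0.615 times that of the wild type. Dnajc3 to Hspa5 was 0.0618, 0.0621 and 0.0649 in knockout cells and 0.0965, 0.1003 and 0.0946 in wild-type cells, a factor of 0.648. The factors for Hyou1, Dnajb11 and Manf relative to Hspa5 were milder, at 0.804, 0.799 and 0.847.

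The ratio of Hsp90b1 to Hspa5 went the other way. It was 1.37, 1.61 and 1.65 in knockout cells and 1.30, 1.26 and 1.31 in wild-type cells, and CRE1 stood nearest to the wild-type libraries. The ratio of calreticulin to calnexin, Calr to Canx, was 5.18, 4.96 and 4.78 in knockout cells and 4.51, 4.55 and 4.56 in wild-type cells, a factor of 1.095. For the partners Sdf2l1 and Dnajb11 the ratio was 0.778, 0.754 and 0.677 in knockout cells and 0.644, 0.666 and 0.652 in wild-type cells, with CRE3 close to the highest wild-type library.

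**Figure D3:**
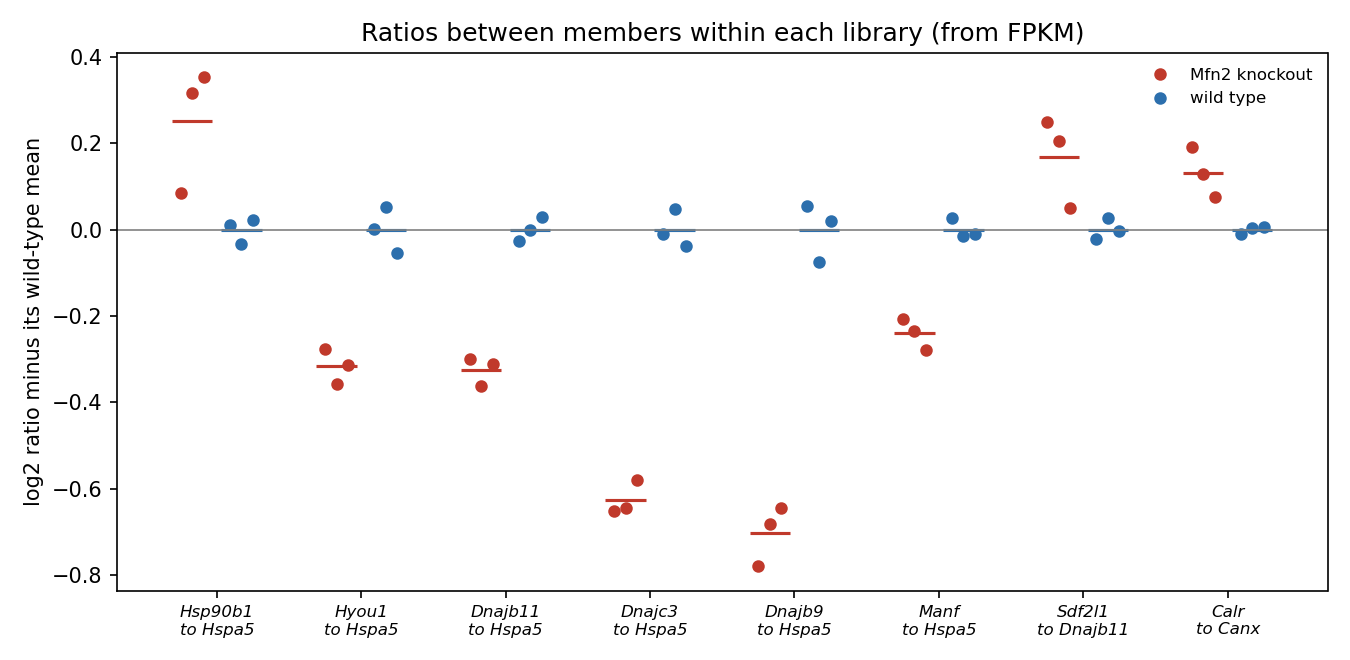
Log2 of each within-library ratio of FPKM, minus the mean of the wild-type libraries, for 8 pairs of members; points are libraries, knockout left and wild type right, and lines are means. The knockout lies below the wild type for Hyou1, Dnajb11, Dnajc3, Dnajb9 and Manf relative to Hspa5, and above it for the 3 other pairs.

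CRE1 stood at one end of the knockout libraries for 9 members. It held the highest CPM of the knockout libraries for 6 members (Hspa5, Hyou1, Dnajb11, Sdf2l1, Calr and Manf) and the lowest for 3 (Hsp90b1, Dnajb9 and Canx). CRE3 held the highest for 4 and the lowest for 4, and CRE2 the highest for 0 and the lowest for 3. The coefficient of variation in knockout cells was 8.83% for Hsp90b1 and 8.63% for Sdf2l1, and 1.35% to 3.82% for the other members. Among 5491 other genes with a mean log2 CPM of at least 5, those whose centred log2 CPM lay nearest to Hspa5 over the 6 libraries were Anxa2, Lamb1, Tapbp, Adam9 and Mzt1, at a root mean square distance of 0.0122 to 0.0243. Calr lay at 0.045, rank 105 among all 15027 other tested genes, and was the nearest of the members.

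Genes that act beside the chaperones did not move as a block. Beside the lists that follow, 30.7% of all 15028 tested genes were called higher and 32.1% lower with TMM. With total counts 2789 of the 15028 were called higher and 50.8% lower. Of 9 further J proteins and exchange factors of the ER, 4 rose, 1 fell and 4 were not called, with a median log2 fold change of 0.11, which was −0.0971 with total counts. The 3 with the smallest p were Dnajc25 (48.5 ± 1.15 CPM in knockout cells and 33.4 ± 1.70 CPM in wild-type cells), Dnajc16 (39.4 ± 1.72 CPM in knockout cells and 29.98 ± 0.513 CPM in wild-type cells) and Dnajc1 (70.8 ± 2.65 CPM in knockout cells and 56.5 ± 2.04 CPM in wild-type cells). With total counts 3 of these 9 rose and 4 fell. The log2 fold change of Dnajc1 was 0.33 with TMM and 0.12 with total counts (adjusted p = 0.0341, edgeR), and its call was lost on log2(FPKM + 1) (adjusted p = 0.084, limma) and against a 1.2-fold change (adjusted p = 0.0736, edgeR).

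The ER paralogs of the members were Sdf2, Cdnf, Calr3, Clgn and Hspa13, of which Clgn was not tested for low counts. Cdnf, the relative of Manf, fell to 4.43 ± 0.196 CPM in knockout cells, against 12.2 ± 0.458 CPM in wild-type cells (log2 fold change −1.46, SE 0.101, adjusted p = 3.72e-09, edgeR), while Manf rose. Sdf2, the relative of Sdf2l1, rose with TMM (log2 fold change 0.30, SE 0.038, adjusted p = 6.17e-06, edgeR) and was not called with total counts (0.087, adjusted p = 0.0588, edgeR). Hspa13, a small HSP70-like protein of the ER, was called higher with TMM (0.18, adjusted p = 0.00203, edgeR) and was negative with total counts (−0.03, adjusted p = 0.497, edgeR).

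In the calnexin cycle, whose enzymes trim and re-glucosylate the sugars that calnexin and calreticulin bind, 5 of 8 members rose and 2 fell with TMM, but 2 rose and 6 fell with total counts. Prkcsh, the regulatory subunit of glucosidase II, rose to 225 ± 6.55 CPM in knockout cells, against 156 ± 2.48 CPM in wild-type cells (log2 fold change 0.53, SE 0.034, adjusted p = 1.57e-09, edgeR). The disulfide isomerase Pdia3, the partner of the lectin chaperones, rose by 0.30 on the log2 scale with TMM and by 0.09 with total counts (adjusted p = 0.00397, edgeR), and was not called against a 1.2-fold change (adjusted p = 0.0588, edgeR). Lman1, a lectin that carries glycoproteins out of the ER, fell by 0.42. The KDEL receptors return escaped lumen proteins from the Golgi. Kdelr1 fell (log2 fold change −0.27, adjusted p = 2.81e-05, edgeR), Kdelr3 was called higher with TMM (0.14, adjusted p = 0.00831, edgeR) but was negative with total counts (−0.06, adjusted p = 0.201, edgeR), and Kdelr2 had 0.06 with TMM (adjusted p = 0.121, edgeR) and was called lower with total counts (−0.15, adjusted p = 0.00074, edgeR). None of the 3 receptors was called against a 1.2-fold change, where 2724 of all 15028 tested genes were called higher and 3132 lower.

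Of 4 genes listed as endoplasmin co-chaperones and related ER helpers, 3 fell and none rose with TMM, while Hsp90b1 rose. Cnpy3, its co-chaperone for Toll-like receptors, was at 37.2 ± 2.21 CPM in knockout cells and 45.7 ± 0.774 CPM in wild-type cells (log2 fold change −0.30, SE 0.052, adjusted p = 0.000116, edgeR). Its relatives Cnpy2 (−0.34) and Cnpy4 (−0.20) fell as well, and Mesd, a chaperone for LDL receptor relatives, had −0.04. All 4 fell with total counts, where 50.8% of all tested genes were called lower, against 32.1% with TMM. Against a 1.2-fold change 1 of the 4 fell, where 3132 of all 15028 tested genes fell. Cnpy3 was not called against that change (adjusted p = 0.199, edgeR). The macrophage markers were lower in the same knockout libraries, with a summed level of 285 to 298.5 CPM, against 2833 to 2850 CPM in wild-type cells. Their part in the falls of these helpers was not tested.

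The sensors and transcription factors of the UPR gave 4 rises and 4 falls among 9 with TMM, and no rise and 5 falls with total counts. Eif2ak3, the kinase PERK, fell to 41.3 ± 0.519 CPM in knockout cells, against 56.4 ± 1.31 CPM in wild-type cells (log2 fold change −0.45, SE 0.045, adjusted p = 2.85e-07, edgeR), and Mbtps1, the protease that releases ATF6, fell by 0.30 on the log2 scale. Atf4 was called higher with TMM (0.25, adjusted p = 8.58e-06, edgeR) but not with total counts (0.04, adjusted p = 0.298, edgeR). Of 12 other UPR target genes, 1 rose, 2 fell and 9 were not called with TMM, and 9 fell with total counts. With total counts 50.8% of all tested genes were called lower. Herpud1 (−0.29) and Selenok (−0.30), both of ER-associated degradation, fell, and Creld2 was called higher with TMM (0.16, adjusted p = 0.00722, edgeR) but was negative with total counts (−0.05, adjusted p = 0.361, edgeR). Against a 1.2-fold change none of these 12 targets was called, where 2724 of all 15028 tested genes were called higher and 3132 lower. Of the 9 sensors and factors 1 fell and none rose against that change, and Mbtps1 was not called (adjusted p = 0.082, edgeR).

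**Figure D4:**
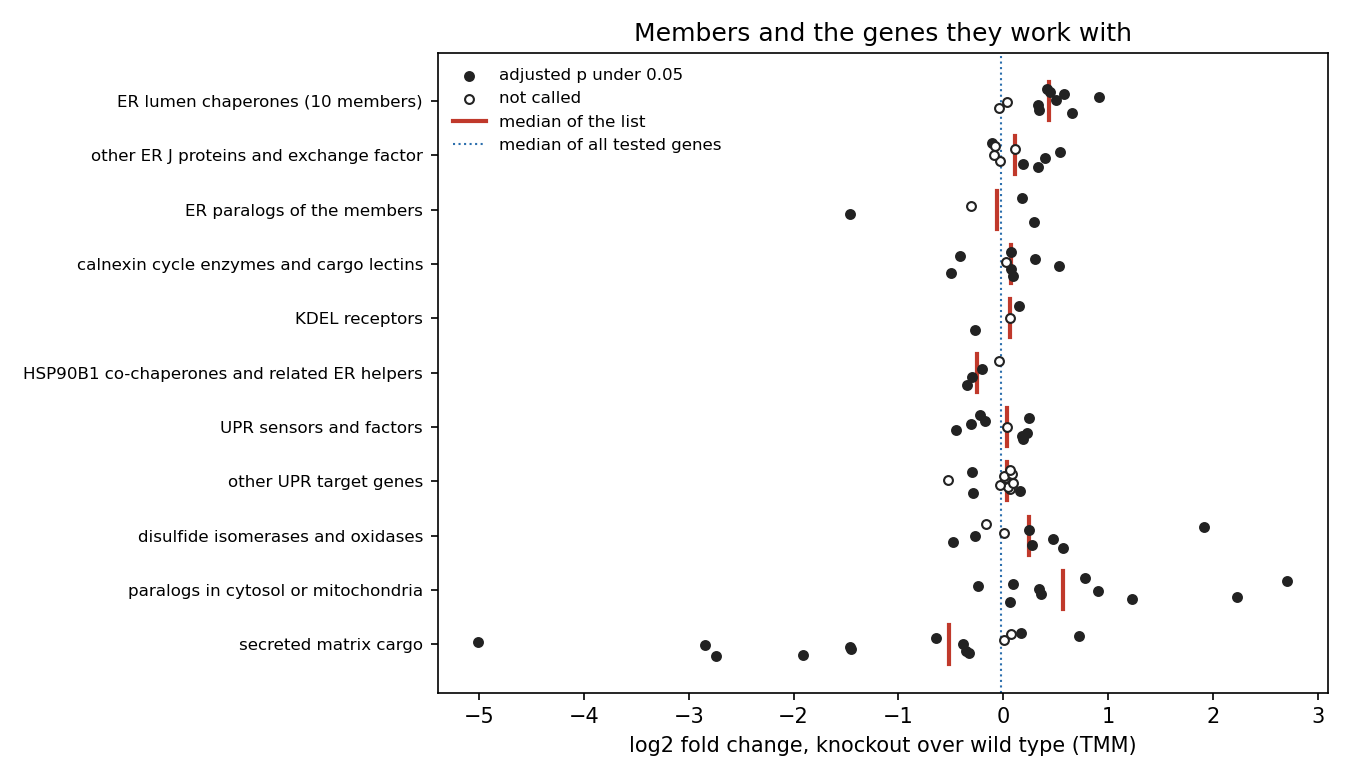
Log2 fold change of knockout over wild type (TMM) for the 10 members and for the genes of 10 related lists; filled points passed an adjusted p under 0.05, open points did not, red bars are list medians and the dotted line is the median of all tested genes. The members sit at a median of 0.43, the HSP70 and HSP90 relatives in cytosol or mitochondria at 0.57, and the disulfide isomerases and oxidases at 0.25. The medians of the UPR sensors and factors and of the other UPR targets lie around 0. Single UPR sensors and factors range from −0.45 to 0.25.

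Disulfide isomerases and oxidases, which form and shuffle disulfide bonds beside the chaperones, gave 5 rises and 2 falls among 9 with TMM, and 3 rises and 4 falls with total counts. The oxidase Ero1a rose to 1096 ± 12.8 CPM in knockout cells, against 291 ± 0.607 CPM in wild-type cells, and P4hb, also a subunit of collagen prolyl hydroxylase, rose to 2699 ± 53.1 CPM in knockout cells, against 1815 ± 13.6 CPM in wild-type cells. Pdia6, another isomerase and BiP partner, rose by 0.47 on the log2 scale (SE 0.030, adjusted p = 1.31e-09, edgeR). Of 10 HSP70 and HSP90 relatives in the cytosol or mitochondria, 9 rose and 1 fell with TMM, with a median log2 fold change of 0.57. With total counts 7 of them rose and 3 fell. Over all 15028 tested genes 30.7% rose and 32.1% fell with TMM, and 2789 rose and 7627 fell with total counts. The named ones were Hspa4l (182 ± 26.5 CPM in knockout cells and 28.0 ± 1.95 CPM in wild-type cells), Hsph1 (329 ± 9.04 CPM in knockout cells and 192 ± 1.98 CPM in wild-type cells) and Hspa1b (75.6 ± 1.38 CPM in knockout cells and 16.2 ± 0.874 CPM in wild-type cells), whose reads can be exchanged with its near-identical copy Hspa1a.

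Among secreted matrix genes, the main cargo of this ER, more genes fell than rose, while their summed level overlapped between the groups with TMM. Of 14 listed, 2 rose, 10 fell and 2 were not called, with a median log2 fold change of −0.51. Over all tested genes 30.7% rose and 32.1% fell with TMM. The 14 together summed to 44430 to 49140 CPM in knockout cells and 46980 to 48910 CPM in wild-type cells, and with total counts to 41580 to 45410 CPM in knockout cells and 50560 to 52580 CPM in wild-type cells. The 2 that rose, named after their values were seen, were abundant. Fn1, fibronectin, was at 23659 ± 1626 CPM in knockout cells and 21047 ± 699 CPM in wild-type cells with TMM (log2 fold change 0.17, adjusted p = 0.000924, edgeR), but its sign turned with total counts (−0.0409, adjusted p = 0.301, edgeR). Col3a1, a fibrillar collagen, was at 9778 ± 327 CPM in knockout cells and 5939 ± 62.2 CPM in wild-type cells. Col2a1 fell to 509 ± 29.0 CPM in knockout cells, against 3397 ± 71.3 CPM in wild-type cells, and Acan fell to 49.0 ± 1.55 CPM in knockout cells, against 352 ± 17.9 CPM in wild-type cells. Col11a1, a minor fibrillar collagen, fell to 747 ± 8.93 CPM in knockout cells, against 2047 ± 34.5 CPM in wild-type cells. Plasma cells, which carry a large ER, were looked for through 5 listed genes, of which only Jchain had enough counts to be tested. Jchain had 0.0344 to 0.537 CPM in knockout cells and 0.0463 to 0.45 CPM in wild-type cells.

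Beyond the members, 32 other genes held the ERSE letters in a RefSeq window, and 15 of these were tested. Of the 15, 5 rose, 3 fell and 7 were not called, with a median log2 fold change of −0.16. Over all tested genes 30.7% were called higher and 32.1% lower. Those of the 15 that rose with TMM were Adcy3 (log2 fold change 0.90), Pdia6 (0.47), Pan2 (0.24), Hnrnpa3 (0.18) and Creld2 (0.16). The ER genes Syvn1, a ubiquitin ligase of ER-associated degradation (44.6 CPM in knockout cells and 43.3 CPM in wild-type cells, log2 fold change 0.04), and Ero1b, an oxidase (12.8 CPM in knockout cells and 14.3 CPM in wild-type cells, −0.16), held the letters and were not called with TMM. With total counts both were called lower (Syvn1 −0.17, adjusted p = 0.0038, and Ero1b −0.37, adjusted p = 0.000717, edgeR). Among the 5 members that held them, Dnajc3 was not called and the other 4 rose. Sdf2l1 rose with no ERSE letters in its window.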

How the data were processed

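Bulk RNA of 3 knockout and 3 wild-type chondrocyte libraries was analysed. The authors deposited read counts per gene symbol and FPKM values, 1 column per library. Per the submitters' processing notes, fastp, HISAT2 and HTSeq were used with GRCm39, with strand setting and annotation not given in the sources used here. Deposited FPKM follow from the counts, the column totals and a single length per gene (checked for counts of at least 100). Wild-type columns matched titles, while CRE columns show their group only. No pair of libraries of a group agreed within sampling noise (chi-square per degree of freedom 3.19 to 8.09). Over all genes CRE1 lay farther from CRE2 (8.09) and CRE3 (7.63) than these lay from each other (3.85).

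In R 4.3.3 the counts were tested with edgeR 4.0.16 (quasi-likelihood F test, TMM, filterByExpr with a minimum count of 10, group only), and alternatives used limma 3.58.1 and DESeq2 1.42.0. The SE is the log2 fold change divided by the square root of F. Named genes were the 10 members, Mfn2, up to 3 members per gene list with the smallest p, up to 2 abundant members per marker list and the 5 genes most like Hspa5. ERSE-bearing genes, Fn1 and Col3a1 were chosen after their values were seen. Of 136 listed symbols, 134 were found. The members and lists were chosen with earlier results of these data known. Promoter sequences are RefSeq's on GRCm38.p6, not the build of the counts.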

Additional observations from a re-analysis of the deposited data

How the results depend on the processing

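The 8 rises among the members kept their direction and their call under all 19 other settings, and members called lower numbered 0 with TMM, 1 under upper-quartile scaling, and 2 under total counts or any fit on log2 FPKM. Leaving out any 1 library left 8 members higher and 0 lower. Of the genes named, those whose log2 fold change turned sign were Dnajc3 (−0.0584 with upper-quartile factors, −0.177 with total counts, −0.172 on log2(FPKM + 1) with or without a filter and −0.176 on log2(FPKM + 0.1)), Kdelr2 (−0.0316, −0.15, −0.149 and −0.15 in the same order), Hspa13 (−0.0333 with total counts, −0.0326 and −0.0342 on FPKM), Kdelr3 (−0.0643, −0.0642 and −0.0652), Creld2 (−0.0495, −0.0494 and −0.0506), Fn1 (−0.0409 and −0.0421), Syvn1 (−0.0481 with upper-quartile factors, −0.166 with total counts, −0.154 and −0.165 on FPKM) and Jchain without 1 library (−0.268 to 0.907 over the 6 libraries). The median of the 9 further ER J proteins and exchange factors turned to −0.0971 with total counts and to −0.0904 and −0.096 on FPKM. Other list medians turned too with total counts and on FPKM. With total counts they were −0.0263 for the members' J proteins with Sdf2l1, −0.136 for the calnexin cycle and −0.15 for the KDEL receptors. The UPR sensors and factors had −0.172 and the other UPR targets −0.178. The calnexin cycle, KDEL receptor and UPR medians also turned with upper-quartile factors. Over all genes, 4607 rose and 4823 fell with TMM. With total counts 2789 rose and 7627 fell, on log2(FPKM + 1) 2354 rose and 6029 fell with a filter and 2706 rose and 7328 fell without, and on log2(FPKM + 0.1) 2345 rose and 5998 fell, so rises were 26.8% of calls with total counts and 48.9% with TMM. Against a 1.2-fold change 5856 of 15028 tested genes were called, 2724 higher and 3132 lower. These scalings differ by construction in what they hold constant. With a replicate block on the column number, 4437 genes rose and 4657 fell and 8 members rose. Same-numbered libraries did not deviate together (correlations −0.0857, 0.0553 and −0.0954), and CRE1 with WT3 had 0.149. No pairing by number was seen, but 3 libraries per group cannot exclude a weak one.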
